A study of Mus musculus with 9 samples.

Results

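Glycogen is the glucose store of skeletal muscle, and 9 genes of its synthesis and breakdown were followed, out of 36842 genes that are listed both for muscle tissue and for cultured muscle cells. They were chosen by gene symbol. *Pygm*, *Pygb* and *Pygl* encode the muscle, brain and liver isoforms of glycogen phosphorylase, and *Gyg*, *Gys1* and *Gbe1* encode glycogenin, muscle glycogen synthase and the branching enzyme. *Phka1* and *Phkg1* encode the muscle alpha and the catalytic gamma subunit of phosphorylase kinase, and *Ppp1r3c* encodes a subunit that targets protein phosphatase 1 to glycogen. RNA sequencing was available for 9 libraries. They comprised primary mouse myoblasts (MB) of C57BL/6 background in growth medium and myotubes (MT) after 3 days in differentiation medium, with 2 biological replicates each. MB treated with 10 mM sodium-L-lactate in PBS comprised 2 replicates, and the untreated MB and MT had received PBS. The length of treatment is given only as overnight conditions. The gastrocnemius muscle (GAS) of female C57Bl6/J mice of 8 to 12 weeks was sequenced in 3 replicates. No transgene or deletion is named for any group. The RNA of the cultured cells was amplified from 5 ng with the Smart-seq2 protocol whereas poly(A) RNA was used for GAS, so tissue and cultured cells are set side by side and were not tested against each other. Apart from the term biological replicate, nothing states that replicates came from separate cultures, and p-values measure the spread between these libraries.

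Glycogenin primes a new glycogen particle, glycogen synthase extends its chains from UDP-glucose and the branching enzyme adds branches. Glycogen phosphorylase releases glucose 1-phosphate from the chains. Phosphorylase kinase, a complex of alpha, beta, gamma and calmodulin subunits, activates phosphorylase in response to calcium and hormones. Protein phosphatase 1, brought to glycogen by its targeting subunits, acts in the opposite direction on phosphorylase and activates the synthase. Mature muscle fibers use the muscle isoform of phosphorylase, whose loss causes McArdle disease.

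The windows upstream of 3 of these genes are shown because their transcripts took different courses between MB and MT. *Pygm* and *Ppp1r3c* were higher in MT, and *Pygb* was not called in either direction. The sequences are from RefSeq on GRCm38.p6 and end at the RefSeq start of the gene, or at the GENCODE start where that lies more than 10 bases further upstream. Capitals mark matches to the E-box motifs CAGCTG and CACGTG. The positions are chr19:6384158-6384407 on the plus strand for *Pygm*, chr2:150786546-150786734 on the plus strand for *Pygb* and chr19:36736654-36736854 on the minus strand for *Ppp1r3c*.
Pygm: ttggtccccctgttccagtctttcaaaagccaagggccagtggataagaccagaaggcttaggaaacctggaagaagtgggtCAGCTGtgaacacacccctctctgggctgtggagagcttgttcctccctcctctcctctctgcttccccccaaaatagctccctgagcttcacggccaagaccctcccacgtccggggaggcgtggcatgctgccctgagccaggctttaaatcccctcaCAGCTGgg
Pygb: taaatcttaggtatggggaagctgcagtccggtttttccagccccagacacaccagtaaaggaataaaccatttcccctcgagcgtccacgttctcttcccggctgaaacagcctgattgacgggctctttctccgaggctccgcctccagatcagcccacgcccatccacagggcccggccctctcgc
Ppp1r3c: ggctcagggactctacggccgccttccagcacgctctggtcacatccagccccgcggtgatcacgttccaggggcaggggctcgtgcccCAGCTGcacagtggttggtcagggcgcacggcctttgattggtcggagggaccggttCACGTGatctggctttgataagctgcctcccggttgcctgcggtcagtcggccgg

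In *Pygm*, CAGCTG began 168 and 8 bases before the RefSeq start, and the second of these matches lies in the last 9 bases of the window, which GENCODE counts as exonic. In *Ppp1r3c*, CAGCTG began 161 and CACGTG 104 bases before the start. No match to either motif, to CACCTG or to TATAAA was found in the 250 bases before the start of *Pygb*. The 3 windows also differed in CpG content over these 250 bases, with 4 CpG dinucleotides in *Pygm*, 17 in *Pygb* and 20 in *Ppp1r3c*. The ratio of observed to expected CpG was 0.191 for *Pygm*, 0.787 for *Pygb* and 0.772 for *Ppp1r3c*, against a median of 0.373 over 32817 promoter windows of the same length. *Phkg1* had the lowest ratio among the 9 genes, 0.0659, with 1 CpG. CAGCTG, which is its own reverse complement, was found before 4 of the 9 genes, namely *Pygm*, *Gys1*, *Phka1* and *Ppp1r3c*, and in 13.0% of all windows. CACCTG, searched on both strands, was found before *Gyg*, *Gbe1* and *Phkg1* and in 17.2% of all windows. GENCODE starts *Gyg* 201 bases further upstream, so that this match lies inside its gene model, as do the whole RefSeq windows of *Phkg1* and *Pygl*. None of the 9 windows held TATAAA on either strand or the MEF2 consensus, which occurred in 12.4% and 2.92% of all windows. No matches overlapped in the 9 windows, although the MEF2 consensus can contain TATAAA. A match of this kind describes letters and not binding.

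The GAS libraries held between 19307793 and 19941574 counts and those of the cultured cells between 5198247 and 10839516. Among the cultured cells, 3 counts, taken as the detection limit for counting error, corresponded to between 0.223 and 0.533 TMM-normalized CPM, which are counts scaled to a common library total. *Myog* (log2 fold change 3.81) and *Ckm* (7.24), markers of differentiated muscle, were called higher in MT, and *Pax7*, a marker of muscle stem cells and MB, lower (-4.11). *Myod1* was not called (-1.93, adjusted p = 0.0528). MT replicate 1 stood apart, with 8918 genes that had a count in no other cultured library, against 129 to 290 such genes in each other library. The CPM of 5 fibroblast markers summed to 13536 and 1875 in MT replicates 1 and 2, whereas MB reached 2.17 to 2.70, where *Lum* was at 0. Most of the sum in MT was *Col1a1*, with 13116 and 1762 CPM. *Col1a1* (log2 fold change 13.3, adjusted p = 0.00039) and *Dcn* (10.97, adjusted p = 0.00017) were called higher by edgeR. *Dcn* was at 408 and 110 CPM in MT and had 0 and 2 counts in MB. *Lum* had 81 and 6 counts in MT. *Thy1* had 1 and 0 counts in MT, as in MB, and *Pdgfra* was not called (1.46, adjusted p = 0.270). Summed markers of macrophages were 16.8 and 2.93 CPM in MT and 1.08 to 1.72 in MB, and those of endothelial cells were 9.53 and 0 CPM in MT. The part of these cells in the results below was not tested. Reads on the rRNA gene *CT010467.1* were frequent in replicate 1 of control MB (9.20%) and of lactate-treated MB (13.8%), and ranged from 0.131% to 0.575% elsewhere among the cultured libraries.

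When MT was compared with MB, which asks how transcript levels differ after differentiation, *Pygm* and *Ppp1r3c* were higher and no member was lower. These are 2 of the 9 genes. The quasi-likelihood test of edgeR could be applied to 7 of them, and *Pygl* and *Phkg1* were left out by its filter on low counts. A gene was called at an adjusted p under 0.05 and an absolute log2 fold change over 0.5, and 17.9% of the 12921 genes tested were called, 11.0% as higher and 6.86% as lower. DESeq2 called 6 of the 9 as higher, adding *Gyg*, *Gys1*, *Gbe1* and *Pygl*, and none as lower, beside 9.24% higher and 6.95% lower among the 16078 genes to which it gave an adjusted p. At an unadjusted p under 0.05, edgeR counted 5 as higher and 0 as lower, beside 18.2% and 14.3% of all genes tested. The median log2 fold change was 1.43 for the 7 genes tested and 0.072 for all genes tested, and *Ppp1r3c* passed the filter only through its counts in MT. The median is the same with *Ppp1r3c* at its lower bound given further on. Without MT replicate 1, 1 gene, *Pygm*, was called. The MT and MB libraries did not overlap, with MT higher, for 6 of the 7, beside 32.9% of all genes tested, and with MT lower for none of the 7, beside 29.2% of all genes tested. In bulk RNA, a change in the number of expressing cells and a change of RNA per cell cannot be told apart.

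**Figure D1:**
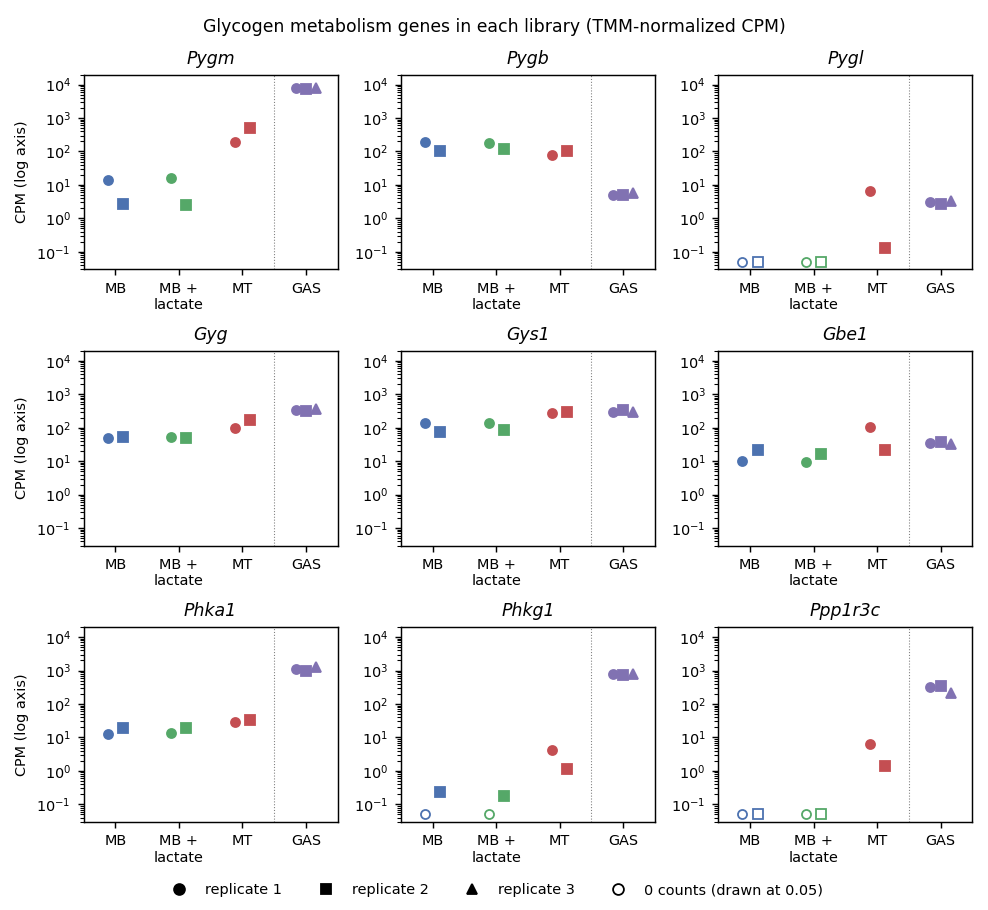
Each panel plots the TMM-normalized CPM of 1 gene on a log axis in every library of MB, lactate-treated MB, MT and GAS, with circles, squares and triangles for replicates 1, 2 and 3 and open symbols, drawn at 0.05, for 0 counts. The GAS libraries, right of the dotted line, were normalized separately. *Pygm* runs from 2.65 and 13.7 CPM in MB to 190 and 505 in MT and 7201 to 8148 in GAS, whereas *Pygb* has its lowest values, about 5, in GAS.

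*Pygm* (ENSMUSG00000032648, chr19:6384399-6398459 in mm10) is the isoform of adult muscle. It was at 13.7 and 2.65 CPM in the MB replicates and at 190 and 505 CPM in the MT replicates. Every MT value was far above both MB values, although the replicates of each group differed several-fold among themselves. The log2 fold change was 5.32 ± 0.84 (SE, n = 2 and 2) with an adjusted p of 0.0023. *Pygm* was called in all 11 alternative analyses. Its log2 fold change was 7.06 without MB replicate 1, 4.54 without MB replicate 2 and 4.54 without MT replicate 2. The muscle markers moved with it, with a summed level of 98.6 to 204 CPM in MB and 11159 to 16542 in MT. MT replicate 2 had the higher *Pygm* level and the lower fibroblast marker sum, and a link between the levels was not tested.

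*Pygb* (ENSMUSG00000033059, chr2:150786735-150831758), which is named for the brain but was the main phosphorylase transcript of MB, was at 187 and 102 CPM in MB and at 80.6 and 105 CPM in MT. The groups overlapped, since the MT value of replicate 2 lay between those of MB. The log2 fold change was -0.67 ± 0.47 (SE) with an adjusted p of 0.354, and its 95% interval ran from -1.71 to 0.369. It was -0.079 without MB replicate 1 and -1.10 without MB replicate 2. *Pygl* (ENSMUSG00000021069, chr12:70190811-70231488), the liver isoform, had 0 counts in all 4 MB libraries, treated or not. In MT it had 89 counts in replicate 1, or 6.63 CPM, and 1 count in replicate 2, or 0.127 CPM. Only MT replicate 1 was therefore above the detection limit. Among the cultured libraries, this one had the highest summed markers of fibroblasts, macrophages, endothelial cells, neural cells, hepatocytes and adipocytes. The sums were 7.82 CPM for neural cells, 2.16 for hepatocytes and 0.670 for adipocytes. The part of such cells in the *Pygl* counts was not tested. DESeq2 gave *Pygl* an adjusted p of 0.0353, and edgeR without a filter 0.121.

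The share of each isoform in the phosphorylase transcripts of a library was computed from RPKM, the CPM per kilobase of exon. *Pygm* made up 9.90% and 3.74% in the MB replicates and 76.9% and 87.7% in those of MT, a mean of 6.82% ± 4.36 (SD, n = 2) against 82.3% ± 7.66 (SD, n = 2). *Pygb* held 90.1% and 96.3% in MB and 21.8% and 12.3% in MT. The RPKM ratio of *Pygm* to *Pygb* was thus 0.110 and 0.0388 in MB, and 3.52 and 7.16 in MT. The leading isoform differed between the groups in every library, but 2 against 2 libraries cannot go below p = 0.333 in an exact two-sided permutation test, so the shares were not tested.

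**Figure D2:**
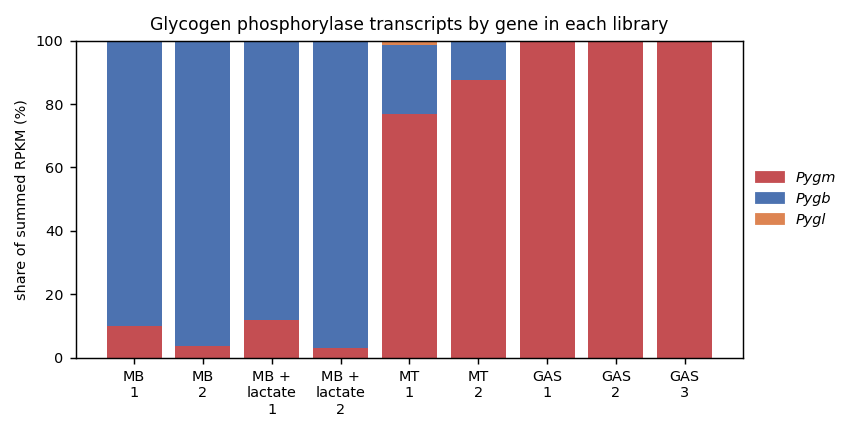
Stacked bars give the share of *Pygm*, *Pygb* and *Pygl* in their summed RPKM, in percent, for each of the 9 libraries. *Pygb* fills 88.2% to 97.0% of the bar in the 4 MB libraries, *Pygm* 76.9% and 87.7% in MT and 99.9% in GAS.

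Of the 3 synthesis genes, none passed the threshold in edgeR. All had higher values in both MT libraries than in both MB libraries, as did 32.9% of all genes tested. *Gyg* (ENSMUSG00000019528, chr3:20122084-20155317), the primer, was at 50.2 and 52.8 CPM in MB and at 99.2 and 176 in MT. Its log2 fold change was 1.40 ± 0.44 (SE) with an adjusted p of 0.0509, just outside the threshold. The MB replicates were close to each other here, and the spread lay in MT. *Gys1* (ENSMUSG00000003865, chr7:45434844-45456619), the synthase, was at 138 and 74.1 CPM in MB and at 285 and 298 in MT. Its log2 fold change was 1.43 ± 0.49 (SE) with an adjusted p of 0.0672, and here the MT replicates were alike. *Gys1* shares 310 exonic bases with *Ruvbl2* on the other strand. Strand is not stated to have been used in counting, so how reads there were assigned is uncertain.

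*Gbe1* (ENSMUSG00000022707, chr16:70313949-70569716), the branching enzyme, was at 10.4 and 21.5 CPM in MB and at 108 and 21.8 in MT. MT replicate 2 and MB replicate 2 were almost equal, so that the difference rested on MT replicate 1. The log2 fold change was 2.10 ± 0.73 (SE) with an adjusted p of 0.0692, and it was 0.40 without MT replicate 1, the library with the highest fibroblast marker sum. It was called without MT replicate 2 (adjusted p = 0.0023), without MB replicate 2 (0.0228) and without the filter on low counts (0.0022). *Gys1* was called without MB replicate 1, with a log2 fold change of 2.04 and an adjusted p of 0.0150. *Gyg* was called with at least 10 counts in every library (0.0407) and with all 6 cultured libraries in one fit (0.0462). DESeq2 called these 3 genes, with adjusted p of 0.0368 for *Gyg*, 0.0309 for *Gys1* and 0.0376 for *Gbe1*.

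Both phosphorylase kinase subunits had higher values in MT. *Phka1* was tested without a call, and *Phkg1* was left out of the edgeR test by its filter on low counts. *Phka1* (ENSMUSG00000034055, chrX:102513975-102644246) was at 12.3 and 18.6 CPM in MB and at 28.4 and 34.3 in MT. The groups did not overlap, with MT higher, as for 32.9% of all genes tested. The log2 fold change was 1.03 ± 0.49 (SE) with an adjusted p of 0.173. *Phka1* made up 35.9% ± 10.1 (SD, n = 2) of the RPKM of both alpha subunit genes in MB and 59.7% ± 10.7 (SD, n = 2) in MT, the rest being *Phka2*. *Phkg1* (ENSMUSG00000025537, chr5:129863421-129898549) had 0 and 2 counts in MB and 58 and 9 in MT, which is at most 0.241 CPM in MB and 4.32 and 1.14 CPM in MT. The MT to MB ratio was 25.9, with a 95% interval for counting error of 6.89 to 218. With MT replicate 2 alone it was 9.42, with an interval of 1.95 to 89.6. DESeq2 gave *Phkg1* an adjusted p of 0.151, and edgeR without a filter 0.513. Most gamma subunit transcripts in MT were still those of *Phkg2*, the isoform of liver and testis, since *Phkg1* held 20.1% and 7.13% of the summed RPKM. *Phkg1* shares 630 exonic bases with *Sumf2* on the other strand, and how reads there were assigned is uncertain.

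*Ppp1r3c* (ENSMUSG00000067279, chr19:36731731-36736653), the targeting subunit also known as PTG, had 0 counts in all MB libraries and 88 and 11 counts, or 6.55 and 1.40 CPM, in MT. Both MT libraries were above the detection limit and none of the MB libraries was. Against a limit of 0.365 CPM for MB, the mean MT level was at least 10.9-fold higher, and that of MT replicate 2 alone at least 3.84-fold higher. The fitted log2 fold change was 8.29 ± 1.81 (SE) with an adjusted p of 0.0129. The call was lost without MT replicate 1 (adjusted p = 0.0831) and without the filter on low counts (0.0626).

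**Figure D3:**
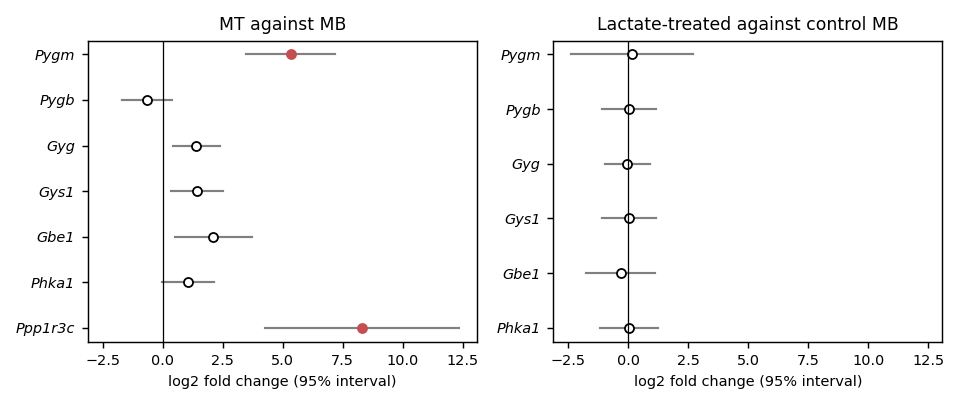
Points give the log2 fold change of each gene tested and lines its 95% interval, for MT against MB on the left and for lactate-treated against control MB on the right. Filled points mark genes past the threshold, which are *Pygm* at 5.32 and *Ppp1r3c* at 8.29 on the left and none on the right.

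Another 27 genes of glycogen metabolism were counted as a list, and 22 of them could be tested between MT and MB. Of these, 8 were called higher and 0 lower, beside 11.0% and 6.86% of all genes tested. The median log2 fold change of the 22 was 0.70, beside 0.072 for all genes tested. Of the 8, *Ppp1r3a*, *Ppp1r3b*, *Ppp1r3d* and *Nhlrc1* had fewer than 10 counts in both MB libraries and passed the filter only through MT. The other 18 genes tested had a median of 0.41, with 4 called. At an unadjusted p under 0.05, 8 were higher and 1 was lower, beside the shares of all genes given above (18.2% and 14.3%). DESeq2 called 7 as higher and 1, *Pgm2*, as lower, beside 9.24% and 6.95% of the genes to which it gave an adjusted p. Another 3 targeting subunits were among the 8 genes that edgeR called. *Ppp1r3a*, the main one of striated muscle, had 0 counts in MB and 82.8 and 92.1 CPM in MT, at least 240-fold higher (adjusted p = 9.6e-05). *Ppp1r3b*, known from liver, was at 0.980 and 0.241 CPM in MB and at 30.2 and 6.87 in MT (log2 fold change 4.93, adjusted p = 0.0081). *Ppp1r3d* was at 0.858 and 0.603 CPM in MB and at 13.3 and 12.1 in MT (4.09, adjusted p = 0.0055). *Nhlrc1*, which encodes the ubiquitin ligase malin, had 1 and 0 counts in MB and 50 and 13 in MT, and its call was lost in 4 of 10 alternatives, including the one without MT replicate 1 (adjusted p = 0.151).

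*Phkb*, the beta subunit that completes the phosphorylase kinase complex, was at 6.00 and 14.5 CPM in MB and at 60.4 and 83.9 in MT. Its log2 fold change was 2.84 ± 0.54 (SE) with an adjusted p of 0.0058, and it was called in all 11 alternatives. *Ugp2*, which makes UDP-glucose, was higher with 2.12 (adjusted p = 0.0125), and its call was lost without MT replicate 2 (0.0527). The lysosomal glucosidase *Gaa* was higher with 1.89 (adjusted p = 0.0280), which was lost without MT replicate 2 (0.186) or MB replicate 2 (0.0588). *Pgm1*, which interconverts glucose 1-phosphate and glucose 6-phosphate, was higher with 1.71 (adjusted p = 0.0449), and this was lost without MT replicate 1 (0.366), without MB replicate 2 (0.0895) and with all 6 cultured libraries in one fit (0.0622). Its paralog *Pgm2* was at 75.9 and 66.3 CPM in MB and at 29.9 and 26.8 in MT, a log2 fold change of -1.33 with an adjusted p of 0.0635. *Pgm1* made up 43.8% ± 8.14 (SD, n = 2) of the summed RPKM of both genes in MB and 86.4% ± 3.33 (SD, n = 2) in MT.

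**Figure D4:**
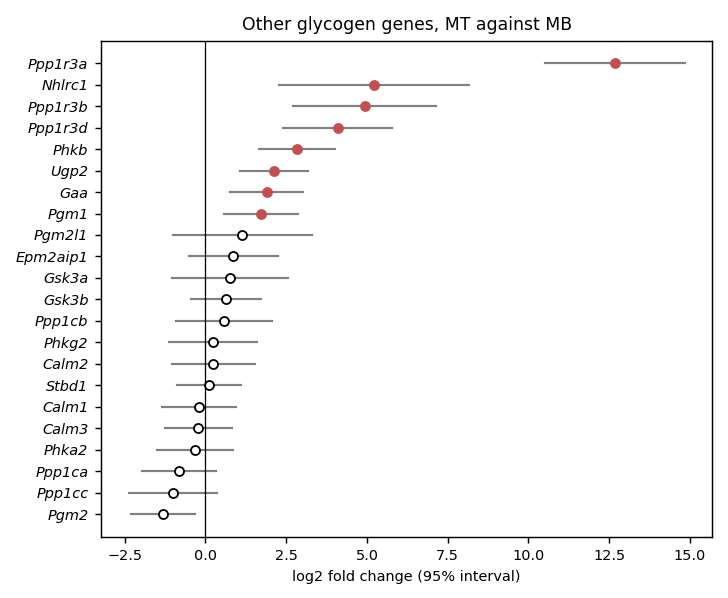
The log2 fold change between MT and MB is plotted with its 95% interval for the 22 other glycogen genes tested, ordered by size, with filled points for genes past the threshold. The 8 filled points run from *Pgm1* at 1.71 to *Ppp1r3a* at 12.68, and *Pgm2* at -1.33 is the lowest point.

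The genes closest in pattern to *Pygm* over the 6 cultured libraries, by the root mean square difference of centred log2(CPM + 1) among 12037 protein-coding genes, were *Mymk* (0.344), *Tnnt1* (0.498) and *Mymx* (0.502). *Mymk* and *Mymx* encode myomaker and myomixer, which fuse myoblasts, and *Tnnt1* encodes slow skeletal troponin T. *Mymk* was at 41.8 and 13.98 CPM in MB, 720 and 1655 in MT and 41.6 and 16.9 in lactate-treated MB. Like *Pygm*, it was higher in replicate 1 than in replicate 2 of MB and the other way round in MT. For *Pygb*, the closest were *Ppp1r16a* (0.0912), *Thap11* (0.0946) and *Poldip2* (0.0975). Each of them was, like *Pygb*, highest in replicate 1 of both MB groups. The shared orders of replicates follow from the choice of these genes by pattern over the same libraries.

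Lactate was added to MB to ask whether it is enough to raise genes whose promoters carry much lactylated histone in MT, a property not analysed here. None of the 6 members that could be tested was called, and neither was any of the 11804 genes tested (0%). Among all genes, 5 had an unadjusted p under 0.05 in edgeR, and DESeq2 called 0 genes, with 4 at an unadjusted p under 0.05. None of the 6 had an unadjusted p under 0.05 in either tool. *Pygm* was at 16.3 and 2.49 CPM in lactate-treated MB, beside 13.7 and 2.65 in control MB. The replicates of each group differed over 5-fold, whereas libraries of the same number were close, and replicate 1 of both groups was the one with the high share of ribosomal RNA. The log2 fold change of *Pygm* was 0.15 ± 1.05 (SE) with a 95% interval from -2.39 to 2.69 in the fit without a term for the replicate number.

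The other members tested had log2 fold changes from -0.32 for *Gbe1* to 0.042 for *Phka1*. *Pygb* was at 183 and 120 CPM with lactate and 187 and 102 without, a log2 fold change of 0.028 with an interval from -1.09 to 1.14. *Gys1* was at 135 and 88.0 CPM with lactate, and its log2 fold change was 0.034 with an interval from -1.09 to 1.16. *Gyg*, the gene with the smallest SE, was at 54.3 and 48.5 CPM with lactate, and its log2 fold change was -0.039 ± 0.38 with an interval from -0.96 to 0.89. These intervals, like that of *Pygm*, are from the fit without a term for the replicate number. In all 6 the groups overlapped, as they did for most genes tested. Of all genes tested, 4.28% were higher and 6.84% lower in both lactate-treated libraries than in both controls. *Pygl* and *Ppp1r3c* had 0 counts with and without lactate, which allows up to 0.533 CPM in a lactate-treated library, and *Phkg1* had 0 and 1 counts with lactate. *Pygm* held 11.8% and 3.01% of the phosphorylase RPKM with lactate, beside 9.90% and 3.74% without. Of the other glycogen genes, 18 could be tested and 0 were called, and none had an unadjusted p under 0.05 in edgeR or DESeq2.

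In GAS, *Pygm* had 2399 ± 149 RPKM (SD, n = 3) with values of 2427, 2238 and 2532, and ranked 28 among 36429 genes. Its transcripts made up 0.737% to 0.806% of all counts. The regulators and the primer of glycogen followed at a distance, with 179 ± 21.1 RPKM for *Phka1*, 145 ± 8.62 for *Gyg*, 118 ± 5.98 for *Phkg1* and 108 ± 25.8 for *Ppp1r3c* (SD, n = 3). *Gys1* was at 64.1 ± 4.96 and *Gbe1* at 6.51 ± 0.298 RPKM. *Pygb* with 1.11 ± 0.104 and *Pygl* with 0.442 ± 0.0398 RPKM came last, at ranks 9567 and 11949. All 9 genes had counts well above 3 in every GAS library, with 54 to 63 counts for *Pygl*, and 5 of them were among the 344 genes with a mean over 100 RPKM.

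In this order, the replicate ranges of neighbours overlapped only for *Phkg1* (111 to 122 RPKM) and *Ppp1r3c* (79.0 to 128 RPKM), whose order is not resolved. *Ppp1r3c* also varied most between muscles, with a coefficient of variation of 23.8% and its lowest value in replicate 3. Dividing by the longest coding transcript in place of all exons changed the place of *Phkg1*, which then had 324 RPKM and came second after *Pygm* with 2686. With that length, the ranges of *Phka1* (161 to 204 RPKM) and *Gyg* (165 to 184 RPKM) overlapped, so their order depends on the length used. *Pygm* accounted for 99.9% of phosphorylase RPKM in every GAS library, *Phka1* for 99.0% of the alpha and *Phkg1* for 98.4% of the gamma subunits of phosphorylase kinase. Among the targeting subunits, *Ppp1r3c* held 62.8% ± 7.87 and *Ppp1r3a* 34.7% ± 7.88 (SD, n = 3), whereas in MT *Ppp1r3a* held 59.0% ± 16.2 and *Ppp1r3c* 6.18% ± 4.87 (SD, n = 2). With no division by length, the order in GAS was reversed, with 56.9% for *Ppp1r3a* and 41.0% for *Ppp1r3c*.

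**Figure D5:**
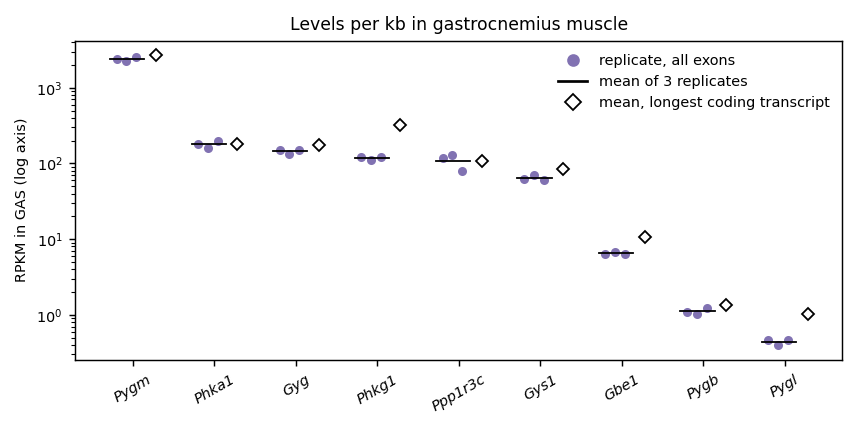
RPKM in GAS is plotted on a log axis for the 9 genes in order of their mean, with filled points for the 3 replicates, a bar for their mean and open diamonds for the mean when the longest coding transcript is used as length. *Pygm* stands at 2399, and *Phkg1* moves from 118 to 324 with the other length.

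Set beside the cultured cells, with the protocol confounded, the members took different courses. *Gys1* had similar mean RPKM in MT (60.9 ± 1.88, SD, n = 2) and GAS (64.1), and *Gbe1* was at 12.1 ± 11.4 in MT and 6.51 in GAS. *Pygm* had 2.54 ± 2.43 RPKM in MB, 108 ± 69.1 in MT and 2399 in GAS. *Phka1* with 5.01 ± 0.674 in MT and 179 in GAS, *Phkg1* with 0.420 ± 0.345 and 118, and *Ppp1r3c* with 1.46 ± 1.34 and 108 had low values in MT and high ones in GAS. *Pygb* ran the other way, with 30.0 ± 12.5 RPKM in MB, 19.3 ± 3.63 in MT and 1.11 in GAS. Library protocol, age, cell composition and maturity cannot be told apart in these differences between culture and tissue.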

How the data were processed

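RNA-seq of 9 mouse libraries was used. By the submitters' processing notes, the authors trimmed reads with Trim Galore 0.6.6, aligned them to mm10 with HISAT2 2.2.1 and counted them per gene with featureCounts of Subread 2.0.1, and the deposited values are raw counts. The annotation, strand and multi-mapping settings are not given in the sources used here. Gene names, coordinates and exonic lengths came from GENCODE M21 (mm10), promoter sequences from RefSeq. TMM normalization was computed for GAS and for cultured cells separately, CPM were divided by exonic length to RPKM, and isoform shares were taken of summed RPKM. MT against MB and lactate-treated against control MB were each fitted on the 4 libraries compared with edgeR 4.0.16 in R 4.3.3 (filterByExpr, TMM, quasi-likelihood test, Benjamini-Hochberg adjustment over all genes tested), calling an adjusted p under 0.05 with an absolute log2 fold change over 0.5. SE is the absolute log2 fold change divided by the square root of F. The code of the fits was also run on simulated counts. These varied less between replicates than the real libraries and held large changes in well-counted genes. That run therefore does not measure power or error rates for the genes followed here. Floors of 3 counts per library and 95% intervals of count ratios cover counting error only.

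Named genes were the 9 members, the other glycogen genes past the threshold with *Phkb* and *Ppp1r3a* in any case, 3 genes most like *Pygm* and *Pygb* (mean CPM of at least 1), and 4 checks of labels. One gene that meets this rule is not reported here and was left out of the list of other glycogen genes. Members and lists were chosen with earlier results of these data known. *Pgm2* was named after its values were seen, as were *Phka2*, *Phkg2*, *Col1a1* and *Dcn*. Cell type markers were listed for myoblasts, muscle, fibroblasts, endothelium, macrophages, adipocytes, neural cells and hepatocytes. Summed levels in MT replicates 1 and 2 were 0.670 and 0 CPM for the adipocyte, 7.82 and 1.02 for the neural and 2.16 and 0 for the hepatocyte markers, and 331 and 861 for the myoblast markers against 1154 to 1729 in MB. Alternatives were RLE size factors, no filter, at least 10 counts in every library, the DESeq2 1.42.0 Wald test, the replicate number as a block, all 6 cultured libraries in one fit, leaving out *CT010467.1* and *Gm26917*, leaving out each library (the lone library of a group is then assumed to vary like the pair of the other group), a nominal threshold for lactate and other gene lengths. A block with crossed numbers was added after seeing the data. CUT&Tag data and other tissues were not analysed here.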

Additional observations from a re-analysis of the deposited data

How the results depend on the processing

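*Pygm* was called in MT against MB under all 11 alternatives, with a log2 fold change of 4.54 to 7.06, and the direction of each member tested in that comparison was kept in every alternative that tested it. With at least 10 counts in every library, 10648 genes were tested and 1444 were called, 766 of them higher, and 4 other glycogen genes were called. DESeq2 called 6 members. When each library was left out in turn, 1244 (without MT replicate 1) to 3584 genes (without MB replicate 2) were called, 288 to 1526 of them lower, and 1 to 3 members. For lactate, 0 genes were called in every alternative and 0 at a nominal p under 0.01 in the design used. At that nominal threshold, the replicate block gave 7 higher and 6 lower genes, leaving out MB replicate 1 gave 19 higher and leaving out MB replicate 2 gave 178 higher and 1 lower. However, directions of members were not stable. *Gyg* turned to 0.019 with RLE size factors and to 0.0071 with DESeq2. Leaving out each library gave ranges of -0.82 to 0.30 for *Gbe1*, -0.065 to 0.0042 for *Gyg*, -0.34 to 0.64 for *Gys1*, -0.26 to 0.38 for *Phka1*, -0.34 to 0.61 for *Pygb* and -1.69 to 1.88 for *Pygm*. With the longest coding transcript as length, GAS levels were 2686 RPKM for *Pygm*, 1.37 for *Pygb*, 1.02 for *Pygl*, 177 for *Gyg*, 83.4 for *Gys1*, 10.5 for *Gbe1* and 324 for *Phkg1*, and the *Pygm* share in GAS was 99.91%, or 99.89% with no division by length. These follow from the lengths used. The cause of the other changes was not tested.

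The replicate number is not stated to mark shared material. Deviations of libraries with the same number correlated with r = -0.132 across genes for MT and MB and 0.705 for lactate-treated and control MB. With the number as a replicate block, 2271 genes were called in MT against MB (1447 higher, 824 lower), with 2 members and 8 other glycogen genes, and 0 with lactate, where 166 genes had an unadjusted p under 0.05 and *Pygm* had a log2 fold change of 0.082 ± 0.37 (SE). With crossed numbers, 2059 genes, 2 members and 6 other glycogen genes were called. Depth limits *Pygl*, *Phkg1* and *Ppp1r3c* in cultured cells, and 2 replicates per group limit the tests.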
